A study of Mus musculus with 59 samples.

Results

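The genes whose RNA was strongly lowered in the striatum or cortex of both Atxn1 mutant mice are followed here across 5 brain regions. They are Ddit4l, Pdp1, Itpka, Hipk4, Crip2, Lzts3, Ankrd33b, 1110008P14Rik, Myl4, and Adam33, 10 of the 54232 mouse genes counted. They were picked for falls in the mutant striatum or cortex, with no stated cutoff, so their values in those regions are given here as a description and without a test. RNA-seq was performed on polyA RNA from the striatum, cortex, hippocampus, cerebellum, and brainstem of 12 C57BL/6 mice aged 10 weeks, and each of the 59 libraries is 1 region of 1 mouse. The wild type (WT) mice, WT-70 and WT-77 with WT-220 and WT-221, carry normal Atxn1 alleles. The mice 154Q-69 and 154Q-71 with 154Q-75 and 154Q-76, of the genotype Atxn1 154Q/2Q, carry 1 expanded CAG knockin allele at the endogenous Atxn1 locus beside 1 normal allele. The mice 154Q-AXH-207 and 154Q-AXH-209 with 154Q-AXH-217 and 154Q-AXH-218, of the genotype Atxn1 154Q[V591A;S602D]/2Q, carry the same expanded allele with 2 substitutions in the AXH domain that disrupt binding of ATXN1 to the repressor Capicua (CIC). These mutant genotypes are called 154Q and 154Q-AXH below, and a library is named by its mouse. The founders were backcrossed to C57BL/6J mice. Every region and genotype had 4 libraries, except the brainstem of 154Q-AXH mice, which had 3.

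Spinocerebellar ataxia type 1 (SCA1) is caused by an expanded glutamine tract in ATXN1, a nuclear protein that binds CIC and, through it, DNA. The cerebellum and brainstem are the regions best known in this disease, but the knockin allele is active throughout the brain, including the forebrain. Several of the 10 genes encode proteins of forebrain excitatory neurons. Itpka phosphorylates inositol trisphosphate, the messenger that releases calcium from internal stores, and binds actin in dendritic spines. Lzts3 encodes a scaffold of the postsynaptic density that binds SHANK proteins. Pdp1 is the catalytic subunit of the phosphatase that activates pyruvate dehydrogenase, and Ddit4l inhibits the growth kinase complex mTORC1. Hipk4 is a protein kinase, Crip2 a LIM domain protein, Ankrd33b an ankyrin repeat protein, Myl4 an alkali light chain of myosin known from embryonic and atrial muscle, and Adam33 a metalloprotease of the ADAM family. 1110008P14Rik is named only by its clone.

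The 10 genes are protein coding and lie on 7 chromosomes of GRCm38. On chromosome 2 are 1110008P14Rik (chr2:32377097-32381938, minus strand), Itpka (chr2:119742337-119751263, plus strand), Lzts3 (chr2:130632839-130642803, minus strand), and Adam33 (chr2:131050591-131063814, minus strand). The others are Ddit4l (chr3:137621612-137628333, plus strand), Pdp1 (chr4:11958184-11966452, minus strand), Hipk4 (chr7:27523267-27531175, plus strand), Myl4 (chr11:104550663-104595753, plus strand), Crip2 (chr12:113140236-113145506, plus strand), and Ankrd33b (chr15:31291478-31367726, minus strand). 1110008P14Rik shares 728 of its 2694 exon bases (27.0%) with Ciz1 on the opposite strand. The counts used ignore strand and set apart reads that overlap 2 genes as ambiguous (4.36% to 5.33% of all pairs). Reads in the shared bases therefore count for neither gene.

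The promoters of Itpka, Ddit4l, and Hipk4 are printed as examples of windows with many, some, and few CG pairs, and their genes are among those described most fully below. The RefSeq promoter set for GRCm38.p6 (250 bases before to 50 bases after each start, 300 bases in all) held 9 windows for 8 of the genes and none for Pdp1 and Adam33. The windows are Itpka (chr2:119742087-119742386, plus strand), Ddit4l (chr3:137623422-137623721, plus strand), and Hipk4 (chr7:27523011-27523310, plus strand), with CG pairs in capitals.
Itpka: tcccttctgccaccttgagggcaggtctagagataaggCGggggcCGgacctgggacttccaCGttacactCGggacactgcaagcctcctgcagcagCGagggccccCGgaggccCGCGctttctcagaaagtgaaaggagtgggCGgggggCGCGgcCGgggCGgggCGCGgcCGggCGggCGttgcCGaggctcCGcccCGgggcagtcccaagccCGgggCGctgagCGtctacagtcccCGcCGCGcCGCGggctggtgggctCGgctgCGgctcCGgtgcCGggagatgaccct
Ddit4l: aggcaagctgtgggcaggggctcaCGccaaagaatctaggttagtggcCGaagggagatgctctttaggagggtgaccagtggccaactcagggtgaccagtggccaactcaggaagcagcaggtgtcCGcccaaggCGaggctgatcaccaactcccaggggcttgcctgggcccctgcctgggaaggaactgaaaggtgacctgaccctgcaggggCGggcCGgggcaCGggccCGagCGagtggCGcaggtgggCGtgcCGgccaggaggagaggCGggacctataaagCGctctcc
Hipk4: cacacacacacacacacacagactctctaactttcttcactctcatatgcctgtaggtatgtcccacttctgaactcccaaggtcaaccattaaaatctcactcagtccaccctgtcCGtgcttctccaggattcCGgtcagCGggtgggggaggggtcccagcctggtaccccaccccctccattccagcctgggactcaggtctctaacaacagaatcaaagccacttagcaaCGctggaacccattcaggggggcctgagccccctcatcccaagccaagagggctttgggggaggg
The Itpka window held 33 CG pairs, the Ddit4l window 14, and the Hipk4 window 4, against a median of 7 over all 32851 windows. The windows of 1110008P14Rik, Lzts3, Myl4, and Ankrd33b held 29, 29, 25, and 22 pairs, and the 2 windows of Crip2 held 29 and 36. The CIC octamer TGAATGAA, searched on both strands, was in 0 of the 9 windows and in 1.30% of all windows, and its variant TGAATGGA was in 0 of the 9 and in 1.21% of all. The cyclic AMP element TGACGTCA and the E-box CACGTG were also in 0 of the 9 windows, against 1.79% and 7.15% of all. The EGR motif GCGGGGGCG was in 1 of the 9 windows, that of Crip2, and in 2.91% of all.

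Some libraries stood apart. The striatal libraries held fewer counts (28.1M to 54.7M) and so did the cortical ones (34.5M to 46.2M) than those of the other regions (64.4M to 112M). In 10 of the 12 striatal libraries the cortical neuron marker Slc17a7 was at 1039 to 1531 CPM (counts scaled to library size), near the 1304 to 1789 of the cortex. The striatal libraries of WT-220 and 154Q-AXH-217 held it at 485 and 301 CPM and were the highest of all striatal libraries in the summed markers of spiny projection neurons, the main neurons of the striatum. In the hippocampal library of 154Q-76, 5 brainstem markers summed to 335 CPM, against at most 1.58 CPM in the other hippocampal libraries, and Xist and Ddx3y were both present (180 and 51.8 CPM). The cortical library of WT-221 held Xist (483 CPM), unlike the other libraries of that mouse. The cortical libraries labelled 154Q-76 and 154Q-AXH-207 have file names that give each other's mouse, and the labels were used. The mouse numbers form a series below 100 and one above 200. All 154Q mice are in the lower series and all 154Q-AXH mice in the higher one, so number series and mutant genotype cannot be told apart except through the WT mice.

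In WT mice the group means of all 10 genes were highest in the striatum or cortex. The striatal means include WT-220, which stood apart. In it Adam33 (1.44 CPM) lay below the WT brainstem (2.37 to 3.19 CPM) and Ankrd33b (67.9 CPM) below the WT hippocampus (77.3 to 104 CPM). Per kilobase of exon (FPKM, the scaled counts divided by exon length), Itpka had the highest mean in the cortex, 135 FPKM, followed by Lzts3 at 75.9 and Crip2 at 65.3 FPKM. Adam33 had the lowest, 1.67 FPKM, below Myl4 at 5.49 and Ddit4l at 9.67 FPKM. All 10 were lowest in the cerebellum or the brainstem, and which of the 2 depended on the gene.

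**Figure D1:**
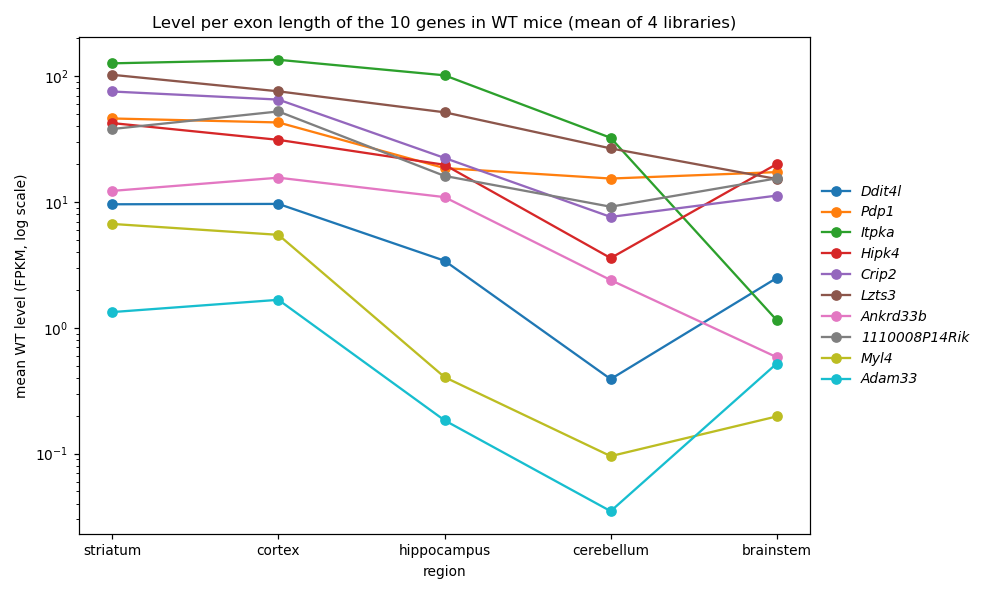
Mean WT level of each gene (y axis, FPKM on a log scale, mean of 4 libraries) in the 5 regions (x axis), 1 line for each gene. Itpka fell from 102 FPKM in the hippocampus to 1.15 FPKM in the brainstem, while 7 of the 10 genes, among them Hipk4 and Adam33, were higher in the brainstem than in the cerebellum.

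The cortical mean was from 2.79 (Pdp1) to 57.5 times (Myl4) the cerebellar mean and from 1.33 (Itpka) to 13.5 times (Myl4) the hippocampal mean. Levels in the cortex and striatum were not tested against each other. Among the other 3 regions, the WT hippocampus was higher than the WT cerebellum for 10 of 10 genes in the quasi-likelihood test of edgeR, Benjamini-Hochberg adjusted, where 32.1% of all genes were called in that direction. This difference was smallest for Pdp1 (log2 difference 0.32 ± 0.10, SE) and largest for Ddit4l (3.16 ± 0.18). Against the WT brainstem, the hippocampus was higher for 6 genes (30.5% of all genes) and lower for Adam33 (log2 difference -1.56 ± 0.43, edgeR quasi-likelihood adjusted p = 0.00554). Pdp1, Hipk4, and 1110008P14Rik did not pass this test, with log2 differences of 0.08, -0.04, and 0.04. The hippocampal excess over the brainstem was 6.42 ± 0.15 on the log2 scale for Itpka and 4.21 ± 0.14 for Ankrd33b. Between the cerebellum and the brainstem all 10 genes differed, with Itpka, Lzts3, and Ankrd33b higher in the cerebellum (32% of all genes) and the other 7 higher in the brainstem (35.3%). The Pdp1 difference there was the least certain (edgeR quasi-likelihood adjusted p = 0.0435) and was lost with DESeq2 (adjusted p = 0.0666), with DESeq2 size factors, without a filter on low counts, and without WT-77, WT-220, or WT-221, and that of Myl4 (0.0329 in edgeR) was lost without any 1 of the same 3 mice. Against the hippocampus, the brainstem differences of Ddit4l (without WT-70 or WT-221), Myl4 (without WT-220), and Adam33 (without WT-77) also lost the threshold (edgeR quasi-likelihood adjusted p from 0.0512 to 0.174). The WT hippocampal library of WT-70 was the highest of its group for Myl4, Adam33, Pdp1, Ddit4l, Crip2, and 1110008P14Rik, and it was also the highest WT library in the cortical marker Tbr1 (75.4 CPM against 42.0 to 56.2). All mutant hippocampal libraries but that of 154Q-76 also lay above the other WT libraries in Tbr1, with values given below.

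The synaptic genes Itpka and Lzts3 were at 42.9% to 62.7% of WT in the striatum and cortex of both genotypes. In the cortex, Itpka was at 202 to 288 CPM in the 4 WT libraries, 118 to 144 in 154Q, and 126 to 148 in 154Q-AXH. In the striatum it was at 211, 227, 229, and 254 CPM in WT, at 92.1, 94.5, 98.7, and 113 CPM in 154Q, and at 114, 123, 127, and 150 CPM in 154Q-AXH mice. Every mutant library lay below every WT library in both regions. The fitted log2 fold changes were -0.91 ± 0.09 and -0.81 ± 0.09 in the cortex and -1.22 ± 0.10 and -0.85 ± 0.10 in the striatum, for 154Q and 154Q-AXH in turn.

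Lzts3 was at 300, 323, 325, and 343 CPM in the WT cortex, at 192, 198, 205, and 208 CPM in 154Q, and at 192, 200, 207.2, and 208 CPM in 154Q-AXH. Its cortical mean was 62.6% of WT in 154Q and 62.7% in 154Q-AXH. In the striatum it stood at 376 to 561 CPM in WT, 204 to 236 in 154Q, and 218.2 to 347 in 154Q-AXH. The mutant and WT ranges did not overlap in either region, and the highest library of WT and of 154Q-AXH in the striatum was the one with the most spiny neuron markers (WT-220 and 154Q-AXH-217).

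Of the metabolic and growth genes, Ddit4l changed most. It was at 25.4, 27.2, 29.1, and 30.2 CPM in the WT striatum, at 5.83, 6.02, 6.68, and 7.44 CPM in 154Q, and at 5.10, 7.77, 8.15, and 8.59 CPM in 154Q-AXH. The highest mutant value was thus well under the lowest WT value, and the fitted level was 23.1% of WT in 154Q and 26.4% in 154Q-AXH. In the cortex, where WT libraries held 24.2 to 30.6 CPM, the mutant libraries held 8.71 to 12.2 CPM in 154Q and 10.7 to 12.2 CPM in 154Q-AXH. The WT means of Ddit4l were alike in these regions (28.0 and 28.2 CPM), and the mutant means were lower in the striatum (6.49 and 7.40 CPM) than in the cortex (10.7 and 11.5 CPM).

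Pdp1 was near 50% of WT in both. Its libraries held 167 to 213 CPM in the WT cortex, 87.3 to 110 in 154Q, and 92.6 to 111 in 154Q-AXH. In the striatum they held 185 to 237, 86.9 to 96.8, and 94.4 to 112 CPM. The ranges of WT and mutant libraries were separate, and the mutant ranges overlapped each other.

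The kinase Hipk4 was at 101, 104, 121, and 129 CPM in the WT cortex, at 54.3, 54.5, 55.8, and 60.4 CPM in 154Q, and at 53.0, 56.4, 59.2, and 75.7 CPM in 154Q-AXH. In the striatum it was at 147 to 161 CPM in WT, 59.3 to 74.6 in 154Q, and 71.4 to 95.9 in 154Q-AXH. The LIM protein gene Crip2 was at 127 to 150 CPM in the WT cortex against 72.5 to 91.2 and 78.3 to 89.4 in the mutants, and at 142 to 197 CPM in the WT striatum against 73.8 to 82.3 and 81.5 to 93.2. For both genes no mutant library reached the lowest WT library.

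Of these 2 regions, Ankrd33b was separate from WT in the cortex only (129 to 151 CPM in WT, 75.8 to 83.4 in 154Q, 73.3 to 85.6 in 154Q-AXH). In the striatum WT-220, at 67.9 CPM, lay among the mutant libraries (67.6 to 77.1 and 55.9 to 70.2), while the other WT libraries held 106, 117, and 139 CPM. 1110008P14Rik was at 135 to 149 CPM in the WT cortex, 58.3 to 74.7 in 154Q, and 65.9 to 77.9 in 154Q-AXH. In the striatum its WT libraries spread from 68.1 to 137 CPM and stayed above the 44.3 to 52.1 of 154Q and the 39.7 to 65.9 of 154Q-AXH.

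The largest proportional falls were those of the least abundant genes, Adam33 and Myl4. Myl4 was at 20.6, 26.1, 26.7, and 28.4 CPM in the WT cortex, at 6.07, 6.36, 7.42, and 8.38 CPM in 154Q, and at 5.27, 7.10, 8.46, and 9.39 CPM in 154Q-AXH. Its fitted cortical level was 27.9% of WT in 154Q and 29.8% in 154Q-AXH. In the WT striatum it spread from 15.5 to 50.6 CPM, still above the 5.14 to 7.40 of 154Q and the 4.35 to 10.2 of 154Q-AXH. Adam33 was at 6.27 to 10.3 CPM in the WT cortex, 1.43 to 2.60 in 154Q, and 1.57 to 1.94 in 154Q-AXH. In the striatum its WT libraries held 7.19, 7.38, and 12.8 CPM and, in WT-220, 1.44 CPM, which overlapped both mutant ranges (0.848 to 2.05 and 0.188 to 2.56).

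**Figure D2:**
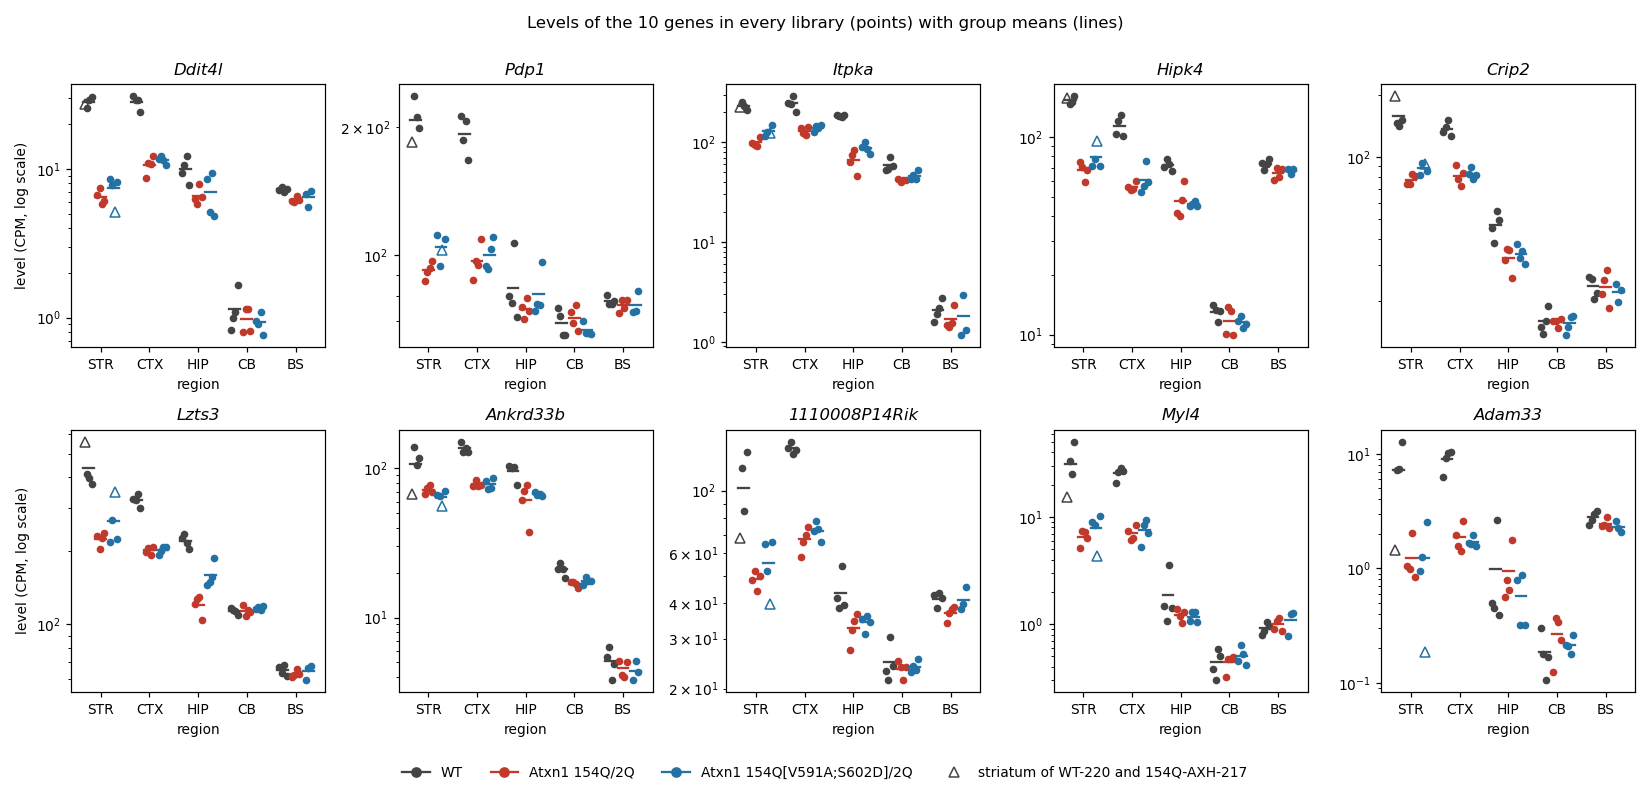
Level of each gene in every library (y axis, CPM on a log scale) by region (x axis: STR, striatum; CTX, cortex; HIP, hippocampus; CB, cerebellum; BS, brainstem). Points are libraries, lines group means, and colours genotypes, with open triangles for the striatum of WT-220 and 154Q-AXH-217. The means of 154Q (red) and 154Q-AXH (blue) lie under those of WT (dark grey) in the striatum and cortex of every panel, with the WT-220 triangle among the mutant points for Ankrd33b and Adam33.

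Over the 10 genes, all mutant libraries lay below all WT libraries for 10 genes in the cortex of both genotypes (8.47% of all genes tested in 154Q and 8.45% in 154Q-AXH) and for 8 in the striatum of both (8.37% and 3.8%), the exceptions being Ankrd33b and Adam33. The genes were picked on these regions, so nothing is read from these counts. For 154Q mice the median striatal log2 fold change of the 10 genes was -1.19 and the cortical one -0.997, and for 154Q-AXH mice these were -0.93 and -0.92, while the median of all genes lay between -0.01 and 0.01. Summed markers of several cell types moved with the groups, among them those of forebrain excitatory neurons. In the cortex these 6 markers summed to 6882 to 8920 CPM in WT, 5228 to 6012 in 154Q, and 5576 to 6155 in 154Q-AXH. Among them Camk2a, Nrgn, and Slc17a7 were lowered in the 154Q cortex. The 4 astrocyte markers summed to 1020 to 1129 CPM in the WT cortex, 811 to 939 in 154Q, and 803 to 998 in 154Q-AXH, and Aqp4, Aldh1l1, and Gfap were lowered in 154Q. In the striatum they summed to 856 to 953, 712 to 786, and 754 to 815 CPM, with 0 of the 4 called. The 3 inhibitory neuron markers summed to 596 to 661 CPM in the WT cortex, 468 to 507 in 154Q, and 506 to 530 in 154Q-AXH. Of the 3, only Gad1 was called, lowered in both genotypes. Fewer cells of a type and less RNA per cell cannot be told apart in these tissue libraries, and the part of such markers in the results was not tested.

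**Figure D3:**
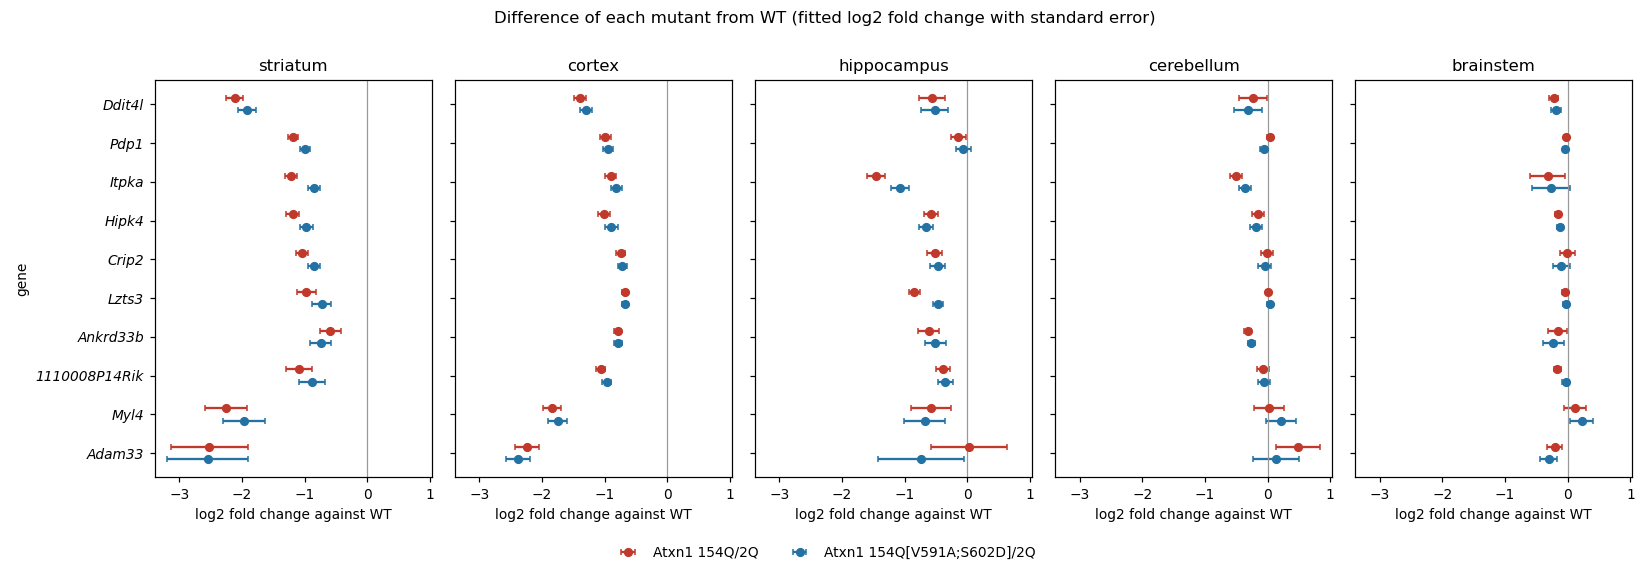
Fitted log2 fold change against WT (x axis) of each gene (y axis) in the 5 regions, red for 154Q and blue for 154Q-AXH, with bars for the standard error. In the striatum and cortex every point lies left of 0, with Ddit4l, Myl4, and Adam33 farthest; in the hippocampus Itpka lies farthest, and in the cerebellum and brainstem most points lie near 0.

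The striatal values depended on the library. The 6 markers of spiny projection neurons (Drd1, Drd2, Ppp1r1b, Adora2a, Tac1, and Rgs9) summed to 3723 CPM in WT-220 and 2157 CPM in 154Q-AXH-217, against 1075 to 1423 CPM in the other WT libraries, 406 to 766 CPM in 154Q, and 364 to 1052 CPM in the other 154Q-AXH libraries. In the same 2 libraries Myl4 (15.5 and 4.35 CPM), Adam33 (1.44 and 0.188 CPM), Ankrd33b (67.9 and 55.9 CPM), and 1110008P14Rik (68.1 and 39.7 CPM) were the lowest of their groups. Lzts3 was the highest of its group in both (561 and 347 CPM), and Hipk4 was the highest of 154Q-AXH in 154Q-AXH-217. Ddit4l in WT-220 (27.2 CPM) was within the range of the other WT libraries. The part of the tissue sampled in these differences was not tested.

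**Figure D4:**
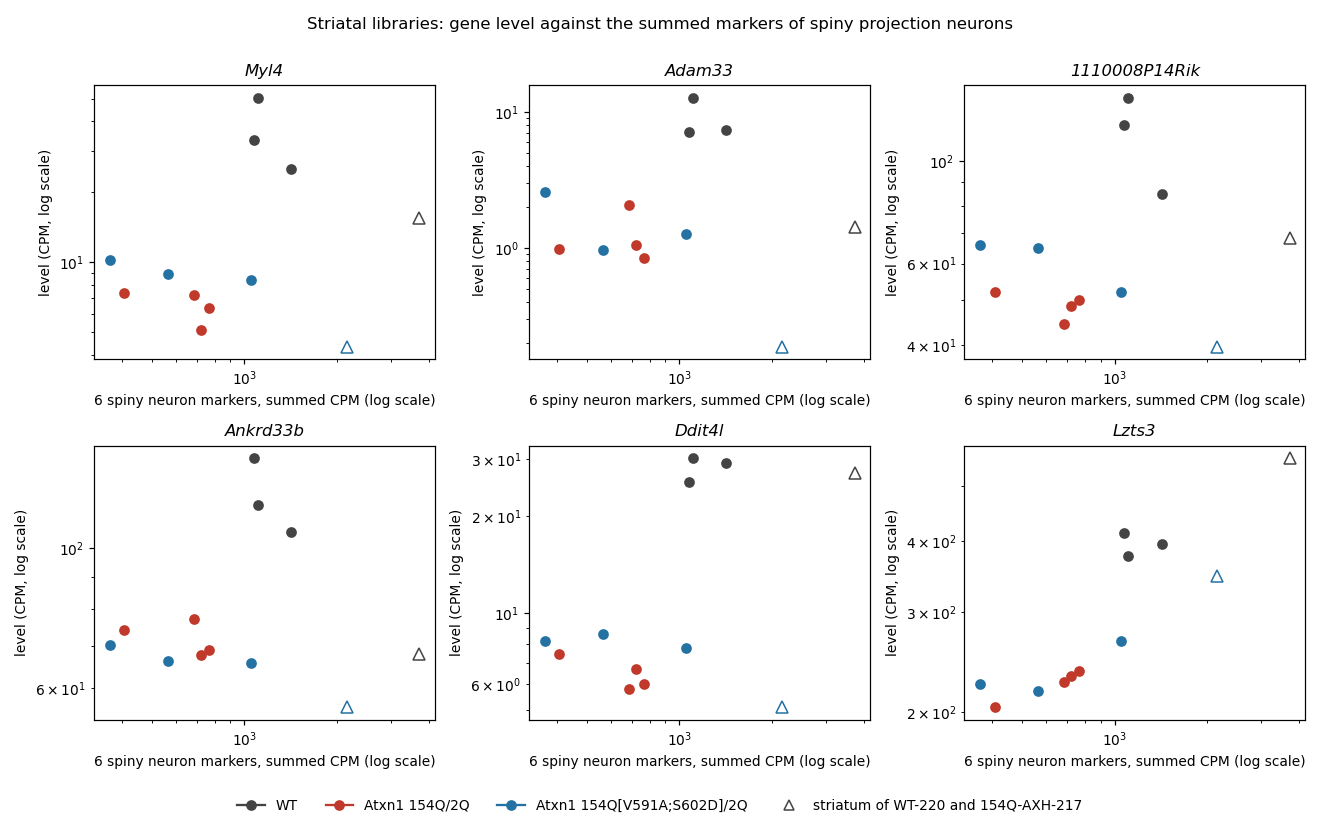
Level of 6 of the genes in the 12 striatal libraries (y axis, CPM, log scale) against the summed CPM of the 6 spiny projection neuron markers (x axis, log scale), coloured by genotype. The open triangles (WT-220 at 3723 CPM and 154Q-AXH-217 at 2157 CPM) lie low for Myl4, Adam33, 1110008P14Rik, and Ankrd33b and high for Lzts3.

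Without these 2 libraries, a comparison added after the data were seen, the median log2 fold change of the 10 genes was -1.22 in 154Q and -0.97 in 154Q-AXH. The fall of Ankrd33b went from -0.59 to -0.75 in 154Q, that of Myl4 from -2.25 to -2.47, that of Adam33 from -2.52 to -2.87, and that of Lzts3 from -0.97 to -0.82. All 10 genes were below WT with and without them. Some genes moved together within groups. Across the 12 striatal libraries, Myl4 correlated with Adam33 and 1110008P14Rik (Pearson r = 0.891 and 0.917) and against Lzts3 (r = -0.870), after subtraction of group means. These values come from the same libraries and share their tissue composition and depth.

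For these genes the mutant genotypes were close to each other in the cortex. The genes were picked as lowered in both mutants, so ratios near 1 in the striatum and cortex are in part set by that choice. The 154Q-AXH effect divided by the 154Q effect (log2 fold changes against the same WT libraries) ranged from 0.886 for Hipk4 to 1.07 for Adam33, with a median of 0.952. The difference of 154Q-AXH from 154Q in the cortex was largest among well counted genes for Hipk4, 0.12 ± 0.10 (SE) on the log2 scale, and was 0.00 ± 0.05 for Lzts3. In the striatum the ratio had a median of 0.827 and was lowest for Itpka, 0.694. Itpka differed by 0.37 ± 0.10, Hipk4 by 0.22 ± 0.10, Pdp1 by 0.19 ± 0.08, and Crip2 by 0.19 ± 0.09, all less far below WT in 154Q-AXH. Ddit4l, Lzts3, 1110008P14Rik, and Myl4 differed by 0.19 to 0.29 in the same direction, with larger standard errors (0.15 to 0.34). The ratio was above 1 for Ankrd33b (1.25) and Adam33 (1.01). These differences are given as a description, with no p for a gene. Over all genes, 0 of 18408 in the striatum and 0 of 18610 in the cortex were called between the mutants by the edgeR quasi-likelihood test. Without the striatal libraries of WT-220 and 154Q-AXH-217, the difference of Hipk4 was 0.11 ± 0.07 and that of Ddit4l 0.33 ± 0.11. All 154Q-AXH libraries lay above all 154Q libraries for Itpka in the striatum and for Lzts3 in the hippocampus, and for 0 of the 10 genes in the other regions (2.55%, 1.46%, 2.83%, 4.13%, and 2.78% of all genes in the striatum, cortex, hippocampus, cerebellum, and brainstem). They lay below for 0 of the 10 genes in any region (2.38%, 1.55%, 1.75%, 1.95%, and 2.32% of all). With the labels of the 2 cortical libraries exchanged, the cortical difference of Myl4 went from 0.09 to 0.41 and that of Itpka from 0.09 to 0.19.

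**Figure D5:**
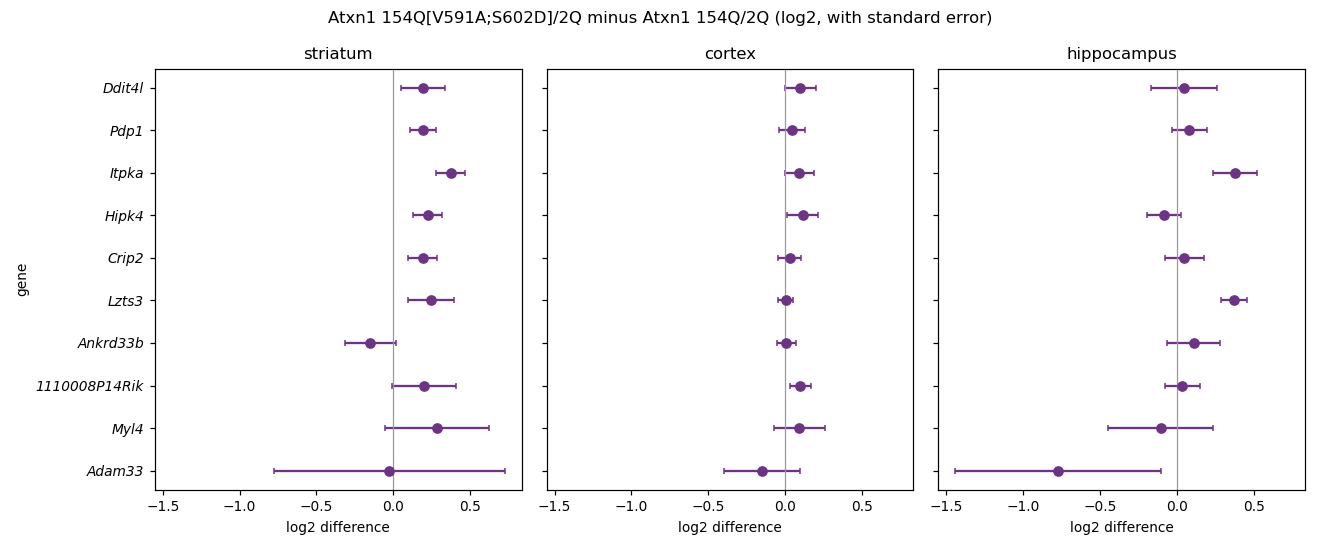
Difference of 154Q-AXH from 154Q (x axis, log2, with bars for the standard error) of each gene (y axis) in the striatum, cortex, and hippocampus. Itpka lies at 0.37 in the striatum and 0.38 in the hippocampus, and Lzts3 at 0.00 in the cortex and 0.37 in the hippocampus.

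The hippocampus was not named in the choice of genes and was tested, although its libraries come from the same mice. In 154Q mice 4 of the 10 genes were lowered and 0 raised, where 3.39% of all genes tested were lowered and 2.52% raised (edgeR's quasi-likelihood test, Benjamini-Hochberg adjusted p under 0.05, as in all calls here). In 154Q-AXH mice 3 were lowered and 0 raised, where 0.671% and 0.629% of all genes were. At an unadjusted p under 0.05 in edgeR, 7 were lowered in each genotype, where 2232 and 1552 of the 21454 genes tested were. DESeq2 called 6 and 4, where it called 5.72% and 2.63% of all genes lowered. The same 6 genes, Itpka, Lzts3, Hipk4, Crip2, Ankrd33b, and 1110008P14Rik, had all mutant libraries below all WT libraries in either genotype (8.15% and 5.41% of all genes). The median log2 fold change of the 10 genes was -0.57 in 154Q and -0.52 in 154Q-AXH, against 0.02 and 0.00 over all genes.

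Itpka fell most. It was at 180, 183, 188, and 189 CPM in the WT hippocampus, at 46.4, 62.6, 74.1, and 83.5 CPM in 154Q, and at 75.9, 86.5, 89.0, and 101 CPM in 154Q-AXH. The lowest value was that of 154Q-76, the library with brainstem markers, and Itpka was at 1.57 to 2.73 CPM in the WT brainstem. The log2 fold change was -1.45 ± 0.14 in 154Q (edgeR quasi-likelihood adjusted p = 2.85e-04) and -1.07 ± 0.14 in 154Q-AXH (adjusted p = 0.00412). Without 154Q-76 it was -1.33 ± 0.10 in 154Q (edgeR quasi-likelihood adjusted p = 5.92e-05).

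Lzts3 was at 203, 216, 227, and 234 CPM in WT, at 105, 122, 127, and 129 CPM in 154Q, and at 145, 148, 156, and 188 CPM in 154Q-AXH. The 3 groups did not overlap. Its log2 fold change was -0.85 ± 0.08 in 154Q (edgeR quasi-likelihood adjusted p = 2.85e-04) and -0.47 ± 0.08 in 154Q-AXH (adjusted p = 0.0154).

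Hipk4 was at 67.3, 70.4, 73.3, and 77.5 CPM in WT, at 40.1, 41.6, 48.2, and 60.2 CPM in 154Q, and at 44.8, 45.0, 45.7, and 47.7 CPM in 154Q-AXH. The 60.2 CPM of 154Q-76 was the highest mutant value, and the WT means of this gene were 73.2 CPM in the brainstem and 72.1 CPM in the hippocampus. The log2 fold change was -0.58 ± 0.11 in 154Q (edgeR quasi-likelihood adjusted p = 0.00988) and -0.66 ± 0.11 in 154Q-AXH (adjusted p = 0.0126), and -0.73 ± 0.07 in 154Q without 154Q-76. Crip2 was lowered in 154Q (-0.53 ± 0.12, edgeR quasi-likelihood adjusted p = 0.0274), with 38.3 to 55.0 CPM in WT and 26.0 to 35.8 in 154Q, and had a log2 fold change of -0.48 ± 0.12 in 154Q-AXH (adjusted p = 0.0808).

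The other 6 genes did not pass the test in either genotype with all libraries. Ankrd33b was at 77.3 to 104 CPM in WT, 37.2 to 76.8 in 154Q, and 65.8 to 69.8 in 154Q-AXH, with log2 fold changes of -0.62 ± 0.17 (edgeR quasi-likelihood adjusted p = 0.0516) and -0.51 ± 0.17 (adjusted p = 0.168). 1110008P14Rik had log2 fold changes of -0.39 ± 0.11 (edgeR quasi-likelihood adjusted p = 0.0679) and -0.35 ± 0.12 (adjusted p = 0.161). Both genes passed in 154Q without the library of 154Q-76 (edgeR quasi-likelihood adjusted p = 0.0210 and 0.0391). Ddit4l, the gene with the most separate groups in the striatum, had log2 fold changes of -0.57 ± 0.21 (edgeR quasi-likelihood adjusted p = 0.140) and -0.52 ± 0.21 (adjusted p = 0.269) and overlapping groups (7.71 to 12.1 CPM in WT, 5.80 to 7.93 in 154Q, 4.81 to 9.30 in 154Q-AXH). Pdp1 was within -0.14 ± 0.11 and -0.06 ± 0.11 of WT. Myl4 and Adam33 were scarce there, at means of 1.88 and 0.992 CPM in WT, and rested on WT-70, with 3.57 and 2.62 CPM against at most 1.48 and 0.499 in the other WT libraries.

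These hippocampal counts varied with the libraries used. Without the library of 154Q-76, 6 genes were called in 154Q and 5 in 154Q-AXH, where 3.61% and 2.06% of all genes were lowered. Without WT-221 only Itpka was called in 154Q-AXH (edgeR quasi-likelihood adjusted p = 0.0508 for Hipk4 and 0.0514 for Lzts3). The 154Q-AXH call of Lzts3 was also lost without 154Q-AXH-217 (adjusted p = 0.0517 in edgeR), and the 154Q call of Crip2 without WT-70, WT-77, WT-220, or 154Q-69 (0.0537 to 0.0661). The Crip2 call was lost as well with counts of 1 strand, with Xist as a covariate, and with only the 2 genotypes compared (edgeR quasi-likelihood adjusted p from 0.0529 to 0.0843). With the number series as a covariate Hipk4 was not called in either genotype (edgeR quasi-likelihood adjusted p = 0.0525 in 154Q and 0.0508 in 154Q-AXH). With WT mice of the same number series only, Itpka and Lzts3 were called in 154Q, where 0.261% of all genes were lowered. In 154Q-AXH Itpka, Lzts3, Hipk4, and Ankrd33b were called, where 1.23% of all genes were lowered. The excitatory neuron markers summed to 6231 to 7363 CPM in the WT hippocampus, to 2610 to 5101 in 154Q, where the lowest was 154Q-76, and to 4878 to 6303 in 154Q-AXH. The inhibitory neuron markers summed to 570 to 597, 437 to 536, and 431 to 501 CPM, and only Gad1 of the 3 was called, lowered in both genotypes. The astrocyte markers summed to 1242 to 1343, 1036 to 1211, and 1142 to 1317 CPM. The cortical marker Tbr1 was at 42.0, 49.5, 56.2, and 75.4 CPM in the WT hippocampus. It was at 31.0 (154Q-76), 66.8, 71.2, and 71.7 CPM in 154Q and at 64.6 to 80.8 CPM in 154Q-AXH. The part of all these markers in the hippocampal values was not tested.

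Between the mutants, 0 of the 10 genes and 0% of all 21454 genes differed in the hippocampus in the edgeR quasi-likelihood test. At an unadjusted p under 0.05 in edgeR, 2 genes differed, Itpka and Lzts3, as did 2356 of all 21454 genes. DESeq2 called Lzts3, and of 18748 genes it called 9 lowered and 35 raised. Lzts3 was higher in 154Q-AXH by 0.37 on the log2 scale (95% interval 0.21 to 0.53, edgeR quasi-likelihood adjusted p = 0.422, higher in 4 of 4 libraries than every 154Q library). Itpka was higher by 0.38 (0.10 to 0.66, edgeR quasi-likelihood adjusted p = 0.422), and by 0.25 without 154Q-76. The interval for Hipk4 was -0.30 to 0.13.

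Few of the 10 genes changed in the cerebellum. Itpka was at 53.0, 53.3, 57.8, and 71.5 CPM in WT, at 39.5, 41.9, 42.0, and 42.6 CPM in 154Q, and at 42.5, 42.8, 46.8, and 52.6 CPM in 154Q-AXH, so that no mutant library reached WT (4.91% and 3.59% of all genes had all libraries of 154Q or of 154Q-AXH below WT). Its log2 fold change was -0.50 ± 0.10 in 154Q (edgeR quasi-likelihood adjusted p = 0.00549) and -0.36 ± 0.09 in 154Q-AXH (adjusted p = 0.0659). Ankrd33b was at 18.5 to 23.1 CPM in WT, 15.7 to 17.4 in 154Q, and 16.6 to 18.6 in 154Q-AXH, with log2 fold changes of -0.32 ± 0.06 (edgeR quasi-likelihood adjusted p = 0.00649) and -0.26 ± 0.06 (adjusted p = 0.0436). These 2 calls in 154Q and 1 in 154Q-AXH stand against 3.12% and 1.13% of all genes lowered. The 154Q-AXH call of Ankrd33b was lost in every fit that left out a library other than WT-77 (edgeR quasi-likelihood adjusted p from 0.0575 to 0.161). Markers of Purkinje cells, the cerebellar output neurons, were also lower, at 3797 to 4158 CPM summed over 3 genes in WT, 2951 to 3147 in 154Q, and 3247 to 3501 in 154Q-AXH, and their part in these falls was not tested. Lzts3, at 110 to 116 CPM in WT and 108 to 120 in the mutants, had intervals of -0.06 to 0.08 and -0.04 to 0.10 on the log2 scale.

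In the brainstem 0 of the 10 genes passed the edgeR quasi-likelihood test in either genotype, where 0.4% and 0.0138% of all genes were lowered, and DESeq2 also called 0. At an unadjusted p under 0.05 in edgeR, 3 genes were lower in 154Q and 3 in 154Q-AXH, where 1250 and 855 of the 21754 genes tested were. The log2 fold changes lay between -0.32 and 0.11 in 154Q and between -0.30 and 0.22 in 154Q-AXH. Ddit4l was at 6.96 to 7.55 CPM in WT and 6.00 to 6.52 in 154Q, the only gene of the 10 whose 154Q libraries all lay below WT (3.13% of all genes), while none of the 10 did so in 154Q-AXH (3.09%), with a log2 fold change of -0.23 ± 0.07 (edgeR quasi-likelihood adjusted p = 0.253). Hipk4, as abundant in the WT brainstem (68.0 to 77.6 CPM) as in the WT hippocampus, had an interval of -0.25 to -0.06 in 154Q and -0.23 to -0.02 in 154Q-AXH.

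The difference between regions was tested in the regions not used to pick the genes. In 154Q mice the effect on Itpka was larger in the hippocampus than in the cerebellum by -0.95 ± 0.20 on the log2 scale (edgeR quasi-likelihood adjusted p = 0.00953) and than in the brainstem by -1.14 ± 0.24 (adjusted p = 0.0103). For Lzts3 these differences were -0.86 ± 0.07 (edgeR quasi-likelihood adjusted p = 7.12e-07) and -0.80 ± 0.07 (adjusted p = 8.05e-07). Thus 2 of the 10 genes passed each test, where 2.2% and 1.6% of all genes did in that direction. In 154Q-AXH mice Hipk4 differed by -0.48 ± 0.08 from the cerebellum (edgeR quasi-likelihood adjusted p = 0.00285) and by -0.55 ± 0.08 from the brainstem (adjusted p = 0.00114), and Lzts3 by -0.51 ± 0.08 and -0.46 ± 0.09 (edgeR quasi-likelihood adjusted p = 0.00209 and 0.0102), against 0.834% and 0.413% of all genes. Hipk4 also passed in 154Q once the hippocampal library of 154Q-76 was left out (-0.57 ± 0.13 in both, edgeR quasi-likelihood adjusted p = 0.0160 and 0.0172). Itpka in 154Q-AXH had differences of -0.72 ± 0.22 and -0.82 ± 0.29 (edgeR quasi-likelihood adjusted p = 0.117 and 0.269). The remaining genes passed none of the 4 tests. In 154Q, the Itpka call against the cerebellum was lost without WT-221 or 154Q-69, and that against the brainstem without WT-220, WT-221, or 154Q-76 (edgeR quasi-likelihood adjusted p from 0.0552 to 0.0586). In 154Q-AXH, the Lzts3 call against the brainstem was lost without WT-220, WT-221, or 154Q-AXH-209 (0.0633 to 0.102). The cortical mean of the 10 genes in 154Q mice was from 0.705 (Itpka) to 3.75 times (Myl4) their WT hippocampal mean.

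Genes that work with the 10 were examined in lists. Of 20 genes of the postsynaptic scaffold and spine, which share their site with Itpka and Lzts3, 5 were lowered in the 154Q striatum, 8 in the cortex, and 8 in the hippocampus, and 0 were raised there. In 154Q-AXH mice 4, 6, and 2 were lowered. Of all genes, 3.77% and 6.71% were lowered in the 154Q striatum and cortex and 1.08% and 4.76% in those of 154Q-AXH. The list median was -0.15, -0.18, and -0.41 on the log2 scale in 154Q, against -0.01, 0.01, and 0.02 over all genes. Homer3, a scaffold that links glutamate receptors to internal calcium stores, fell by 1.27 on the log2 scale in the 154Q hippocampus (SE 0.17, edgeR quasi-likelihood adjusted p = 0.00150) and by 0.83 in the 154Q-AXH hippocampus (adjusted p = 0.0311). Dlg4, which encodes PSD-95, fell by 0.47 there in 154Q (edgeR quasi-likelihood adjusted p = 0.00601) and Baiap2, an actin regulator of spines, fell by 0.68 (adjusted p = 0.0142). In the cerebellum 4 of the 20 were lowered and 2 raised in 154Q (3.12% and 2.1% of all genes), with Baiap2 lowered in both genotypes (-0.41 and -0.27, edgeR quasi-likelihood adjusted p = 8.96e-05 and 0.00646). In the brainstem 1 was lowered in 154Q, Lzts1, and 0 in 154Q-AXH. Genes of these lists other than the 3 with the lowest p-values in the 154Q hippocampus were named after their values were seen. Camk2a is in this list and among the excitatory neuron markers.

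Of 12 genes of inositol phosphate and calcium release, the pathway of Itpka, 3 were lowered in the 154Q striatum, 1 in the cortex, 2 in the cerebellum, and 0 in the other regions. In 154Q-AXH mice 1 was lowered in the striatum, 1 in the cortex, and 0 elsewhere. Of all genes, 3.77%, 6.71%, and 3.12% were lowered in the striatum, cortex, and cerebellum of 154Q. In the striatum and cortex of 154Q-AXH 1.08% and 4.76% were. Plcb1, a phospholipase that makes inositol trisphosphate, was lowered in the striatum and cortex of both genotypes (log2 fold changes from -0.39 to -0.34, edgeR quasi-likelihood adjusted p from 0.00925 to 0.0190). Itpr1, the inositol trisphosphate receptor, and Inpp5a, a phosphatase that removes this messenger, were lowered in the 154Q striatum (-0.47 and -0.34, edgeR quasi-likelihood adjusted p = 0.0244 and 0.0419) and cerebellum (-0.29 and -0.33, adjusted p = 0.00765 and 0.00115). Inpp1, a phosphatase of the same pathway, was raised in the hippocampus of both (0.24 and 0.26, edgeR quasi-likelihood adjusted p = 0.0229 and 0.0411) and in the 154Q cortex (0.17, adjusted p = 0.0319). Of all genes, 2.52% and 0.629% were raised in the hippocampus of 154Q and 154Q-AXH, and 4.4% in the 154Q cortex. Of 13 genes of the pyruvate dehydrogenase complex and its regulators, the partners of Pdp1, 1 was lowered in 1 comparison and 0 elsewhere. It was the kinase Pdk4 in the 154Q cortex (-0.32, edgeR quasi-likelihood adjusted p = 0.0179), where 6.71% of all genes were lowered. Of 14 genes of mTORC1 and its regulators, the pathway of Ddit4l, 0 were called by edgeR in any region of either genotype. Of 20 relatives of Hipk4, Crip2, Ankrd33b, Myl4, and Adam33, of which 16 to 19 were tested, Myl6b and Myl6, light chains related to Myl4, were raised in the cortex of both genotypes, as 4.4% and 2.39% of all genes were (0.39 and 0.35 for Myl6b, 0.19 and 0.20 for Myl6, edgeR quasi-likelihood adjusted p from 0.00186 to 0.0135). Adam8 was lowered in the 154Q hippocampus (-0.88, edgeR quasi-likelihood adjusted p = 0.0330), as 3.39% of all genes were. Csrp1 was lowered and Adam15 raised in the 154Q cortex, where 6.71% of all genes were lowered and 4.4% raised. None of the related Hipk genes was called.

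The genes most like each of the 10 were sought by Pearson correlation of log2 CPM, centred in each region on its WT mean, over the 59 libraries and 17540 genes counted in every region. The correlation mixes genotype, mouse, and tissue differences of shared libraries and is a description. Lzts3 was most like Sec14l1 (r = 0.960) and Ap1s1 (0.937). Myl4, Pdp1, and Adam33 all had Tnnc1 among their 2 most alike genes (r = 0.942, 0.924, and 0.887). Ddit4l was most like Fam43a (0.922), Hipk4 like Gpd1 (0.925), Crip2 like Arpp19 (0.919), 1110008P14Rik like Efhd2 (0.936), and Itpka like Git1 (0.872). Ankrd33b was most like Homer1 (0.880), a postsynaptic scaffold of the list above that was lowered in the striatum and cortex of both genotypes.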

How the data were processed

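RNA was polyA selected and sequenced in pairs, and per the labels each library is 1 region of 1 mouse. The p-values of tests within a region therefore measure the spread between mice. Tests between regions used several libraries of each mouse with no block for the mouse, so their p-values do not measure that spread alone. The deposited gene counts were made by the authors with Trimmomatic 0.36 and STAR 2.7.2d, per the submitters' processing notes, and the unstranded column was used. CPM values were computed here from these counts with 1 TMM scaling over the 59 libraries, and FPKM by dividing by exon length. Within each region the 3 genotypes were fitted together with edgeR 4.0.16 (quasi-likelihood, filterByExpr, TMM) in R 4.3.3, with Benjamini-Hochberg adjustment over all genes and a threshold of 0.05. Errors of log2 values are standard errors, and 95% intervals are 1.96 standard errors wide on each side. DESeq2 1.42.0 was an alternative. Scripts were tested on simulated data. Mouse numbers mark the same animal in several regions, so they pair libraries between regions and not between genotypes. Members and lists were chosen with earlier results of these data known. All 10 genes are described, with at most the 3 genes of lowest adjusted p per list in the 154Q hippocampus, and the 2 most alike genes of each. The result of 1 marker gene is not reported here.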

Additional observations from a re-analysis of the deposited data

Results flagged for a closer look

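In 8 of 140 groups of libraries, 1 library lay far from the others of its group, against 5% of groups by chance. Pdp1 was at 70.1 CPM in the cerebellum of 154Q-AXH-207 (65.4 to 65.5 in the other 3) and at 96.6 CPM in the hippocampus of 154Q-AXH-218 (73.7 to 76.8). Itpka was at 2.36 CPM in the brainstem of 154Q-76 (1.41 to 1.56). Ankrd33b was at 77.3 CPM in the hippocampus of WT-77 (99.9 to 104). Myl4 was at 0.323 CPM in the cerebellum of 154Q-69 (0.476 to 0.499) and at 3.57 CPM in the hippocampus of WT-70 (1.07 to 1.48). Adam33 was at 2.62 CPM in the hippocampus of WT-70 (0.390 to 0.499) and at 2.05 CPM in the striatum of 154Q-75 (0.848 to 1.05).

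The genotype effect differed between regions for 3 genes in the edgeR quasi-likelihood test of the interaction. In 154Q mice the hippocampal minus cerebellar difference was -0.95 for Itpka and -0.86 for Lzts3, and the hippocampal minus brainstem difference was -1.14 for Itpka and -0.80 for Lzts3. In 154Q-AXH mice these differences were -0.48 and -0.55 for Hipk4 and -0.51 and -0.46 for Lzts3.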

How the results depend on the processing

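The median falls of the 10 genes in the striatum and cortex kept their direction in all alternatives. Leaving out 1 library at a time, they ranged from -1.24 to -1.14 and from -1.004 to -0.90 in the striatum of 154Q and 154Q-AXH, and from -1.05 to -0.94 and from -0.97 to -0.87 in the cortex. The cortical difference between the mutants, 0.07, was 0.15 with the labels of the 2 cortical libraries exchanged and 0.15 without them. The hippocampal counts ranged from 3 to 6 in 154Q and from 1 to 5 in 154Q-AXH, and from 0 to 1 in the cerebellum of 154Q-AXH. With WT mice of the same number series only, 2 genes were called in the 154Q hippocampus (0.261% of all genes lowered) and 1 in the 154Q cerebellum (1.12%). The same setting called 2 in the 154Q-AXH cerebellum (5.92%). With the number series as a covariate, 1 was called in the 154Q cerebellum (2.49%). DESeq2 called 1 gene between the mutants in the hippocampus (35 of 18748 genes raised) and 2 in the 154Q-AXH cerebellum (2.81% of all genes lowered). In the 154Q-AXH cerebellum 0 were called by edgeR with Xist as a covariate and 0 with only the 2 genotypes compared. In the edgeR fit of all libraries there, 2 were lowered at an unadjusted p under 0.05, as were 1613 of 20874 genes. The counts of genes whose effect differed between the hippocampus and another region ranged from 1 to 3 and 1 to 2 in 154Q, and from 2 to 3 and 1 to 2 in 154Q-AXH, for the cerebellum and brainstem in turn. They fell to 1 without WT-221 or 154Q-69 (cerebellum, 154Q), without WT-220 or WT-221 (brainstem, 154Q), and without WT-220, WT-221, or 154Q-AXH-209 (brainstem, 154Q-AXH). With the mouse number as a replicate block, the pairing of regions left these counts at 2, 2, 2, and 2, and no call changed. The cause of these changes was not tested.

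Uncalled values changed sign. Adam33 in the 154Q hippocampus went from 0.03 to -0.046 with DESeq2, -0.052 with counts of 1 strand, -0.52 with the number series as a covariate, -0.18 with Xist as a covariate, and -0.56 with WT mice of the same series, and ranged from -0.53 to 1.16 when 1 library was left out. In 154Q-AXH it was 0.29 and 0.30, and Pdp1 0.033 and 0.037, under the number series settings, and with 1 library left out they ranged from -1.06 to 0.40 and from -0.148 to 0.077. Between the WT hippocampus and brainstem, leaving out 1 library gave -0.068 to 0.157 for Pdp1, -0.066 to 0.093 for 1110008P14Rik, and -0.108 to 0.023 for Hipk4. Of 908 single-gene values with a test, 812 kept their direction and their side of the threshold, 51 lost the threshold, 27 gained it, and 18 changed sign. Depth was not the same in all regions, and genes under a few CPM, Adam33 and Myl4 outside the striatum and cortex, are the least certain.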
